A study of Homo sapiens with 12 samples.

Results

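CDKN1A, MDM2, BBC3, GADD45A, BTG2, FDXR, ZMAT3, SESN1 and RRM2B are 9 genes that p53 switches on in many cell types after DNA damage. They were chosen by name, as canonical p53 targets, from the 58288 genes of an RNA-Seq table, and each symbol matched 1 row. These genes and the gene lists used below were chosen with earlier results of these data known, so their shares only describe these data. All 9 passed the filter on low values and were among the 15973 genes tested. RNA was sequenced from FaDu, an established human HNSCC line that is known to carry mutant p53. The 4 groups were STING WT cells left unirradiated, STING WT cells given 4 daily fractions of 2 Gy, STING KO cells left unirradiated, and STING KO cells given the same fractions. Each group had 3 libraries, which gave 12 libraries in all. By the study's methods both lines carried lentiviral Cas9 and were selected with puromycin, the STING WT line with a non-targeting gRNA and the STING KO line with a gRNA against TMEM173, the gene of STING. Each genotype was therefore 1 line made with 1 gRNA, and a difference between the lines cannot be told apart from a difference between STING WT and STING KO. The time from the last fraction to RNA collection was not given in the sources used here. The labels do not say that the libraries of a group came from separate cultures, so p-values may measure only technical spread.

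p53 is a transcription factor that is stabilized by the ATM and ATR kinases after DNA breaks and binds response elements near its target genes. The targets act together: MDM2 is the ubiquitin ligase that returns p53 to a low level, CDKN1A encodes the CDK inhibitor p21, and BBC3 encodes the BH3-only protein PUMA. Many mutations of p53 remove its binding to DNA, although several of the same targets can also be induced by other factors, among them TGF-beta signalling for CDKN1A. Which of these genes still responded to radiation in FaDu cells, and whether STING KO moved them, are the questions of the comparisons here.

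The table holds transcripts per 1000000 (TPM), a level per transcript length, so levels can be compared between genes. TPM keeps no record of depth, so the read support of each value is not known. Between 14860 and 15292 genes had a TPM of at least 1 in a library, and the mean correlation of a library with the others of its group lay between 0.984 and 0.987. TMEM173 was at 22.1 ± 1.24 TPM in unirradiated STING WT and 5.81 ± 0.995 TPM in unirradiated STING KO cells (SD, n = 3). After radiation it was at 23.1 ± 2.61 and 6.95 ± 0.544 TPM. Every library labelled STING KO lay below every STING WT library for this gene, although its mRNA was still present. The 8 squamous epithelial markers were all detected and summed to between 6425 and 9049 TPM in a library. The 8 markers of other cells (immune, endothelial, fibroblast and liver) summed to between 21.6 and 40.6 TPM, nearly all of it CD68 and COL1A1, and each of the other 6 reached at most 0.368 TPM. CD68 was at 18.3 ± 3.35 TPM in unirradiated and 28.6 ± 3.88 TPM in irradiated STING WT cells (log2 change 0.62, adjusted p = 0.14), and its part in the results was not tested.

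The promoters of CDKN1A, FDXR and SESN1 are shown first. CDKN1A was the only member that passed the test for radiation. FDXR and SESN1 were the only members searched with an exact match to the p53 decamer near a start. The sequences are from RefSeq on GRCh38.p14 and run from 250 bases before to 50 bases after an annotated start of transcription. The reference held 14 such windows for 7 of the 9 members, some of them overlapping, and GADD45A and RRM2B had no entry. In CDKN1A the capitals mark the GC box GGGCGG, the site of SP1-type factors. In FDXR and SESN1 they mark only the p53 decamer, an arm of the p53 response element, and GC boxes are left in lower case.
CDKN1A, chr6:36678464-36678763, plus strand: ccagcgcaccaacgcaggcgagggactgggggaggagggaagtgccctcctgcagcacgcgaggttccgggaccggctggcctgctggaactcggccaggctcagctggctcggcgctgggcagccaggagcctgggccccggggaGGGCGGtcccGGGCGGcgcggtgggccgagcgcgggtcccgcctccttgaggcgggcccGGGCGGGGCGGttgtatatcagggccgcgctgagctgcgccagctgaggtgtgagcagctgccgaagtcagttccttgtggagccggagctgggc
FDXR, chr17:74872945-74873244, minus strand: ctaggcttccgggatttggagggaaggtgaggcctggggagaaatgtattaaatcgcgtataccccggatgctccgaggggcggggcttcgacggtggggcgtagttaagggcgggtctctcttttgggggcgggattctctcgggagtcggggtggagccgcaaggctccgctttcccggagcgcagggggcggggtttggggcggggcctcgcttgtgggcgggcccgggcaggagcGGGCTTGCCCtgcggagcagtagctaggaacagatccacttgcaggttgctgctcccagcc
SESN1, chr6:109008939-109009238, minus strand: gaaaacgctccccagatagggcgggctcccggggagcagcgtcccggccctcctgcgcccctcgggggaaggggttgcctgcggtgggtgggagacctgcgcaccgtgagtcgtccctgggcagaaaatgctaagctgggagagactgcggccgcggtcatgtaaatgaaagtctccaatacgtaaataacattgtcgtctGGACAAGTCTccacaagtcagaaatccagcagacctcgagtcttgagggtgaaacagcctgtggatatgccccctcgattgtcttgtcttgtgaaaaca
The CDKN1A window held 4 GC boxes, which began 104, 94, 45 and 40 bases before the start, the last pair overlapping by a base. In FDXR the decamer GGGCTTGCCC began 11 bases before the start, and at a second FDXR start there was none. In SESN1 the decamer GGACAAGTCT began 49 bases before an internal start, and at the other 2 SESN1 starts there was none. Both strands were searched. A decamer was thus found at 2 of the 14 windows, against 6.63% of all 35116 windows of the reference, and for 2 of the 7 members, against 8.06% of its 27305 genes. CATG, the centre of many p53 decamers, was found for MDM2, SESN1 and ZMAT3, against 60.6% of genes. The GC box was found for 6 of 7 members, all but BBC3, against 48.3% of genes, and the TATA box TATAAA for none, against 14.0%. The well-known p53 elements of CDKN1A lie further upstream than its window. Only exact matches were counted, so an element whose arms depart from the decamer pattern was missed. MDM2 or another member without a match may therefore still hold a p53 element near a start.

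Of the 9 genes, only CDKN1A passed the test in any of the 4 comparisons between groups, and it passed in all 4. It rose after radiation in STING WT and in STING KO cells, and it was lower in STING KO than in STING WT cells with and without radiation. The test was limma on log2(TPM + 1), with p-values adjusted by the Benjamini-Hochberg method over all 15973 genes and a threshold of 0.05. Over all genes tested, 3.74% passed for radiation in STING WT cells, 3.69% for radiation in STING KO cells, 1.73% for STING KO against WT without radiation and 3.59% with radiation. The 1 of 9 in each comparison is a share of 11.1%, which a single gene makes up. By direction, 2.24% of all genes rose and 1.5% fell with radiation in STING WT cells, and 2% rose and 1.7% fell in STING KO cells. Against STING WT, 1.26% of all genes were lower in STING KO cells without radiation and 2.66% with it. The median log2 change of the 9 genes was 0.04 for radiation in STING WT and -0.01 in STING KO cells, beside 0.02 and 0.02 over all genes. For STING KO against WT it was -0.02 without and 0.04 with radiation, beside -0.02 and -0.02 over all genes.

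**Figure D1:**
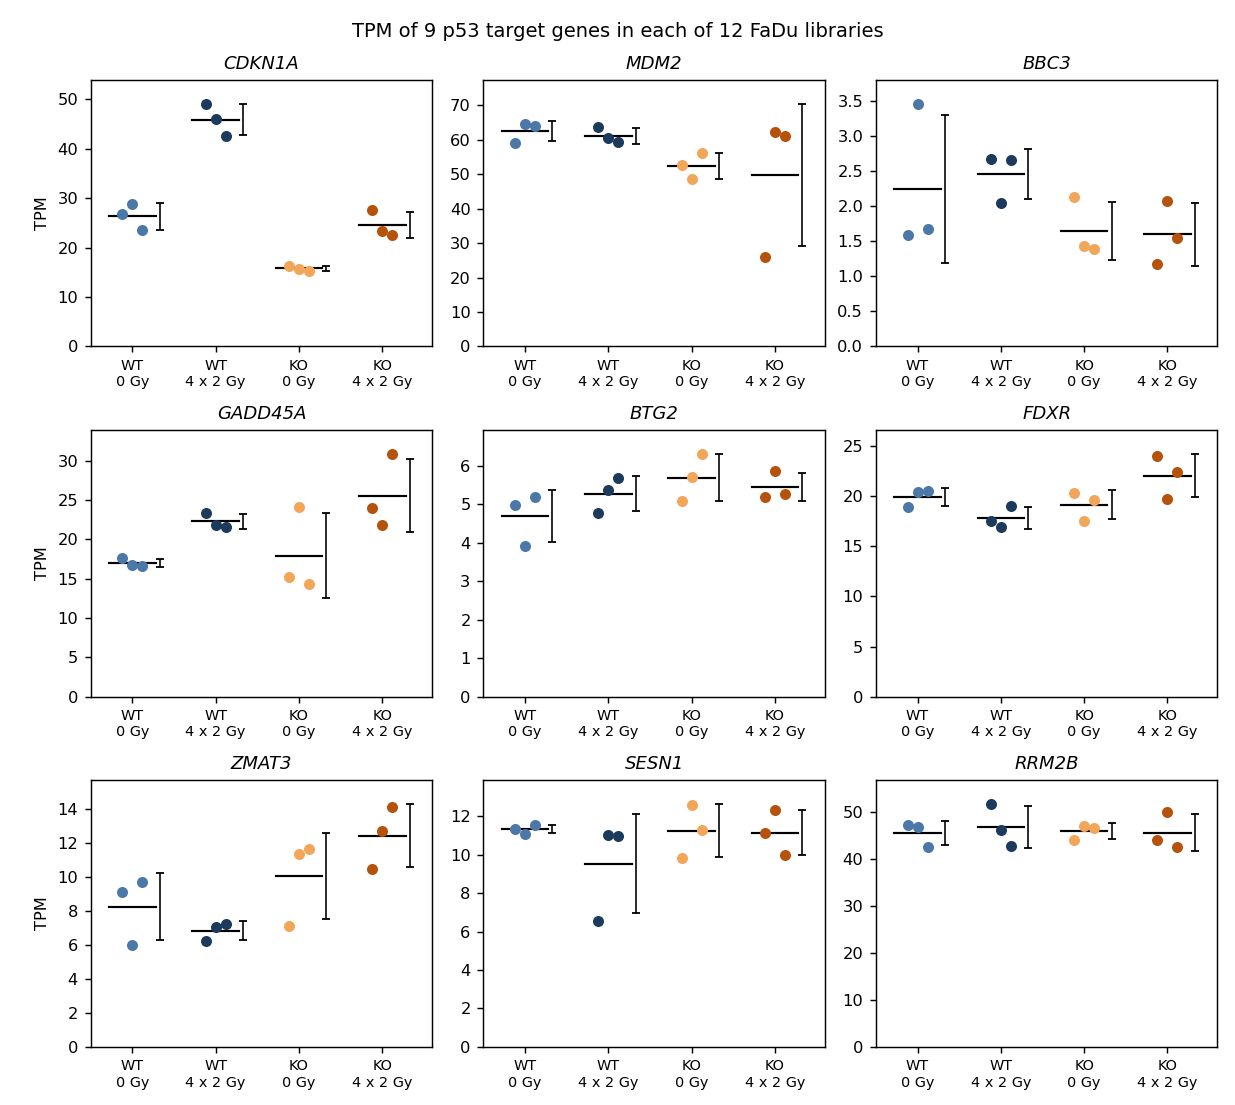
TPM (linear axis from 0) of each of the 9 genes in every library, as points, with the group mean as a line and a bar of 1 SD on each side of it (n = 3). CDKN1A is higher in irradiated than in unirradiated cells of each line and lower in STING KO than in STING WT cells, whereas single libraries lie apart for MDM2, GADD45A, SESN1 and BBC3.

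CDKN1A (ENSG00000124762.13, chr6:36676460-36687339 on GRCh38, plus strand) encodes p21, which binds cyclin-CDK complexes and PCNA and holds cells in G1 and G2. In unirradiated STING WT cells it was at 26.8, 28.9 and 23.5 TPM, and in irradiated STING WT cells at 49.0, 46.1 and 42.6 TPM. In unirradiated STING KO cells it was at 16.3, 15.7 and 15.4 TPM, and in irradiated STING KO cells at 27.6, 23.4 and 22.6 TPM. The order of the group means was irradiated WT, unirradiated WT, irradiated KO and unirradiated KO. The middle pair overlapped, so irradiated STING KO cells reached about the level that STING WT cells held without radiation. Radiation raised the mean from 26.4 ± 2.71 to 45.9 ± 3.18 TPM in STING WT cells (SD, n = 3), a ratio of 1.74. The log2 change was 0.78 (SE 0.093, adjusted p = 0.0016). In the STING KO line the mean rose from 15.8 ± 0.506 to 24.5 ± 2.68 TPM, a ratio of 1.55 and a log2 change of 0.60 (SE 0.093, adjusted p = 0.0068).

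The responses of CDKN1A in the 2 lines were not shown to differ on the log2 scale. The difference between them, STING KO minus WT, was -0.18 with a 95% interval from -0.47 to 0.11 (adjusted p = 0.86, limma interaction). In TPM the gain was 19.5 in STING WT and 8.74 in STING KO cells. Without radiation the STING KO mean was 0.599 of the WT mean, a log2 difference of -0.70 (SE 0.093, adjusted p = 0.0033). With radiation it was 0.535 of it, a log2 difference of -0.88 (SE 0.093, adjusted p = 4.2e-04). Every library of the lower group lay below every library of the higher group in each of the 4 comparisons. In bulk RNA, fewer cells expressing the gene and less RNA per cell cannot be told apart. CDKN1A shares 146 exon bases with DINOL, a noncoding RNA on the other strand that was not analysed here. The strand setting of the sequencing is not given in the sources used here, so reads from the pair cannot be told apart.

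GADD45A (ENSG00000116717.11, chr1:67685061-67688338, plus strand) encodes a small stress protein that acts in G2/M arrest and DNA repair. It was at 17.6, 16.7 and 16.7 TPM in unirradiated and 23.4, 21.9 and 21.6 TPM in irradiated STING WT cells, with no overlap. In STING KO cells the levels were 15.3, 24.2 and 14.4 TPM without and 24.0, 21.9 and 30.9 TPM with radiation. The second unirradiated STING KO library lay above the others of its group and within the range of the irradiated ones. The log2 change was 0.37 in STING WT (SE 0.17, adjusted p = 0.29) and 0.51 in STING KO cells (SE 0.17, adjusted p = 0.14). Neither passed the test. Without that unirradiated STING KO library, the change in STING KO cells was 0.73 (SE 0.12, adjusted p = 0.020) and passed. That in STING WT cells stayed at 0.37, with SE 0.11 and adjusted p = 0.11. GADD45A was the only member other than CDKN1A whose irradiated libraries all lay above the unirradiated ones in STING WT cells, and 14.7% of all tested genes did so.

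BTG2 (ENSG00000159388.5, chr1:203305491-203309602, plus strand), an antiproliferative cofactor of mRNA deadenylation, stayed between 3.93 and 6.30 TPM in the 12 libraries. Its group means were 4.70 ± 0.675 and 5.27 ± 0.458 TPM in unirradiated and irradiated STING WT cells and 5.69 ± 0.613 and 5.44 ± 0.364 TPM in STING KO cells. The groups overlapped in each comparison. The log2 changes with radiation were 0.14 in STING WT (95% interval -0.10 to 0.39) and -0.05 in STING KO cells (-0.30 to 0.19).

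MDM2 (ENSG00000135679.22, chr12:68808176-68850686, plus strand) had the highest mean level of the 9 genes, 56.5 TPM over the 12 libraries, at or above 78.7% of all tested genes. It was at 59.2, 64.5 and 64.0 TPM in unirradiated and 63.8, 60.4 and 59.4 TPM in irradiated STING WT cells. In STING KO cells it was at 52.6, 48.5 and 56.1 TPM without and 25.9, 62.2 and 61.2 TPM with radiation. The first irradiated STING KO library was at 0.533 of the next lowest library, and the other two of its group lay above all unirradiated STING KO libraries. The log2 changes with radiation were -0.03 in STING WT (95% interval -0.61 to 0.55) and -0.17 in STING KO cells (-0.75 to 0.40). Without the low library they were -0.03 (-0.17 to 0.11) and 0.23 (0.076 to 0.39, adjusted p = 0.13), so the direction in STING KO cells turned. The unirradiated STING KO libraries all lay below the unirradiated WT libraries, by a log2 difference of -0.25 (adjusted p = 0.73, or 0.10 without the low library). In that comparison CDKN1A and MDM2 were the members whose libraries lay apart downward, as did those of 12.1% of all genes.

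Of 11146 genes averaging 5 TPM or more, 89 (0.798%), MDM2 included, had a lowest library at or below the MDM2 ratio to the next lowest. These low values were spread over all 12 libraries, from 2 to 14 genes in each, with 10 in the library that was low for MDM2. MDM2 shares exon bases with CPM on the other strand and with 2 other annotated genes, which reached at most 2.22, 0.696 and 0.550 TPM.

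BBC3 (ENSG00000105327.17, chr19:47220822-47232766, minus strand), whose product PUMA frees BAX and BAK to open mitochondria, had the lowest level of the 9 genes, between 1.17 and 3.46 TPM. It was at 1.59, 3.46 and 1.67 TPM in unirradiated and 2.67, 2.05 and 2.66 TPM in irradiated STING WT cells. STING KO cells held it at 2.12, 1.43 and 1.38 TPM without and 1.17, 2.07 and 1.55 TPM with radiation. All groups overlapped but the irradiated pair came close, with the lowest STING WT library at 2.05 and the highest STING KO library at 2.07 TPM. At these levels the log2(TPM + 1) scale understates a change. The log2 changes with radiation were 0.14 (95% interval -0.35 to 0.62) and -0.03 (-0.52 to 0.46), and the STING KO difference with radiation was -0.42 (adjusted p = 0.36).

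FDXR (ENSG00000161513.11, chr17:74862497-74873031, minus strand) encodes the mitochondrial ferredoxin reductase, and its transcript is a well-known blood marker of radiation dose. It was at 18.9, 20.4 and 20.5 TPM in unirradiated and 17.5, 16.9 and 19.0 TPM in irradiated STING WT cells. The STING KO libraries were at 20.3, 17.5 and 19.6 TPM without and 24.0, 19.8 and 22.4 TPM with radiation. The log2 changes with radiation were -0.16 (SE 0.084, adjusted p = 0.37) in STING WT and 0.19 (SE 0.084, adjusted p = 0.26) in STING KO cells. The difference between them was 0.35 (95% interval 0.086 to 0.61), and its adjusted p of 0.69 did not pass. In irradiated cells all STING KO libraries lay above all WT libraries, by 0.29 on the log2 scale (SE 0.084, adjusted p = 0.093), which missed the threshold.

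ZMAT3 (ENSG00000172667.10, chr3:179017223-179072279, minus strand) encodes a zinc finger protein that binds RNA and acts on splicing. It was at 9.11, 5.99 and 9.68 TPM in unirradiated and 6.21, 7.06 and 7.25 TPM in irradiated STING WT cells. In the STING KO line it was at 7.11, 11.4 and 11.6 TPM without and 10.5, 12.7 and 14.1 TPM with radiation. All 3 irradiated STING KO libraries lay above all irradiated WT libraries, a ratio of means of 1.82. The log2 difference was 0.77 (95% interval 0.32 to 1.22, adjusted p = 0.068), which missed the threshold. It passed, with adjusted p = 0.043, in a fit to only the 6 libraries compared. It also passed without the second unirradiated STING WT library (0.043) and without the first unirradiated STING KO library (0.037). The adjusted p ranged from 0.037 to 0.20 over 20 alternatives. The log2 changes of ZMAT3 with radiation were -0.22 in STING WT and 0.30 in STING KO cells, with intervals from -0.66 to 0.23 and from -0.14 to 0.75, and neither passed (adjusted p = 0.64 and 0.48). FDXR and ZMAT3 were the 2 genes of the 9 that lay apart upward in irradiated STING KO against WT cells, and 9.62% of all tested genes did so.

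SESN1 (ENSG00000080546.13, chr6:108986437-109094819, minus strand) encodes sestrin 1, which restrains mTORC1 and takes part in antioxidant defence. It was at 11.4, 11.1 and 11.5 TPM in unirradiated and 6.55, 11.1 and 11.0 TPM in irradiated STING WT cells, and between 9.85 and 12.6 TPM in the 6 STING KO libraries. All irradiated STING WT libraries lay below the unirradiated ones, as did those of 10.1% of all genes, but the other two were close to the lowest unirradiated library. The log2 change was -0.26 (adjusted p = 0.46), and without the first irradiated STING WT library it was -0.04 (95% interval -0.28 to 0.21). In STING KO cells it was -0.01 (95% interval -0.38 to 0.36).

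RRM2B (ENSG00000048392.11) encodes the p53-inducible small subunit of ribonucleotide reductase, which supplies deoxynucleotides for DNA repair. It stayed between 42.6 and 51.7 TPM in all 12 libraries, and its coefficient of variation within groups, 7.21%, was the smallest of the 9 beside 7.26% for FDXR. The log2 changes with radiation were 0.04 (95% interval -0.14 to 0.22) in STING WT and -0.01 (-0.19 to 0.17) in STING KO cells. Both intervals lie under the 0.60 that CDKN1A gained in STING KO cells.

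**Figure D2:**
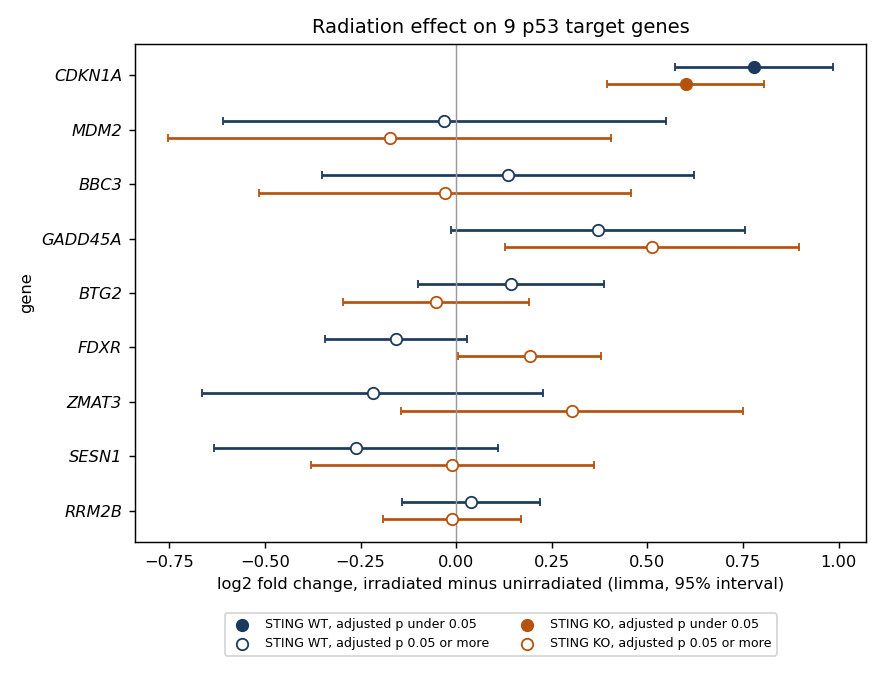
Log2 fold change with radiation (horizontal axis, irradiated minus unirradiated, from limma on log2(TPM + 1)) of the 9 genes in STING WT and STING KO cells, with 95% intervals and filled points where the adjusted p is under 0.05. CDKN1A alone is filled in both lines, at 0.78 and 0.60, and the wide intervals of MDM2 include its low library.

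**Figure D3:**
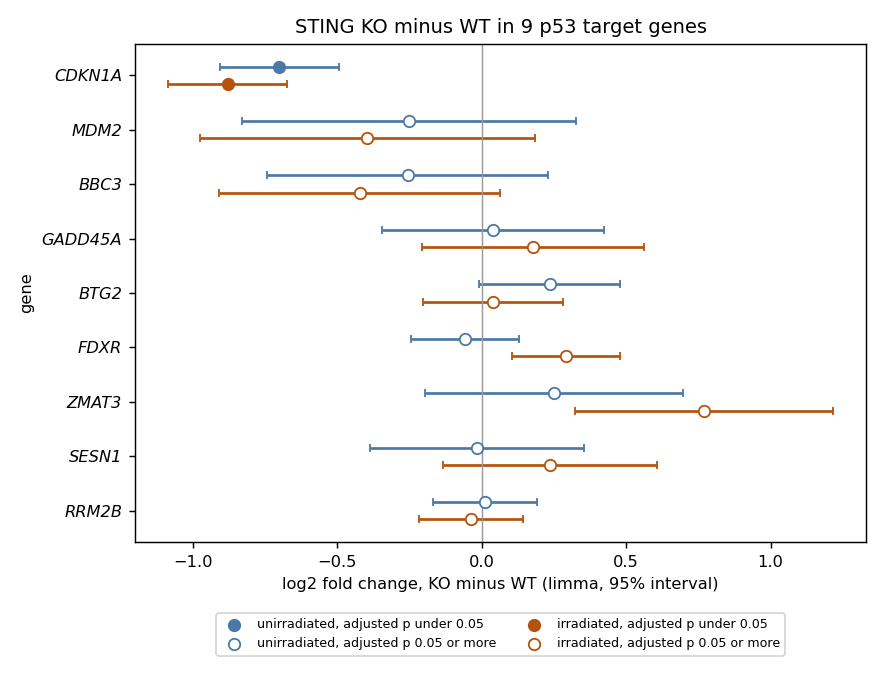
Log2 fold change of STING KO minus STING WT (horizontal axis, limma on log2(TPM + 1)) of the 9 genes in unirradiated and irradiated cells, with 95% intervals and filled points where the adjusted p is under 0.05. CDKN1A is filled at -0.70 and -0.88, and ZMAT3 lies furthest to the right, at 0.77 in irradiated cells, unfilled.

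No member passed the test for a difference between the radiation effects of the lines, where 0.0188% of all genes (3 genes) passed. Without adjustment the p was under 0.05 for FDXR alone among the 9, and for 6.61% of all genes. The limma count at an unadjusted p under 0.05 was 1 of 9 for radiation in STING WT cells, where 18.2% of all genes were under it, and 3 of 9 in STING KO cells (CDKN1A, GADD45A and FDXR), where 18.1% were. For STING KO against WT it was 1 of 9 without radiation (14.3% of all genes) and 3 of 9 with radiation (CDKN1A, FDXR and ZMAT3, 17.9% of all genes). The libraries did not overlap for 3 of 9 genes for radiation in STING WT cells (24.8% of all genes), 1 in STING KO cells (24.3%), 2 for STING KO against WT without radiation (20.6%) and 3 with it (24.1%).

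CDKN1A was set beside its relatives and beside other genes of the cell cycle. Of 16 paralogs and other relatives of the members, 13 were tested and none passed for radiation in either line. The shares over all genes were 3.74% and 3.69%, and 0 of 13 is near them. CDKN1B, which encodes p27, was at 78.7 ± 5.30 TPM in unirradiated and 65.7 ± 9.90 TPM in irradiated STING WT cells (log2 change -0.27, adjusted p = 0.22). CDKN1C, which encodes p57, had log2 changes of 0.19 and 0.43 in STING WT and STING KO cells (adjusted p = 0.59 and 0.17). GADD45B was at 6.01 ± 2.23 TPM in unirradiated and 10.2 ± 1.61 TPM in irradiated STING KO cells (log2 change 0.72, adjusted p = 0.15). SESN3, a paralog of SESN1, was higher in STING KO than in WT irradiated cells, at 8.97 ± 0.459 against 6.40 ± 0.402 TPM (log2 difference 0.43, adjusted p = 0.010). It was the 1 of the 13 that passed in that comparison, 7.69% beside 3.59% of all genes. RRM2, the cell cycle counterpart of RRM2B, changed by 0.25 and 0.23 with radiation (adjusted p = 0.67 and 0.69).

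A list of 17 cell cycle genes held cyclins, CDKs and PCNA, and also RB1 and its relatives, E2F1, E2F4 and LIN54. Among these 17, 2 rose and 1 fell with radiation in STING WT cells and 1 rose and 1 fell in STING KO cells. These are shares of 17.6% and 11.8%, beside 3.74% and 3.69% of all genes. CCND2, which encodes cyclin D2, rose from 22.9 ± 1.12 to 32.2 ± 0.913 TPM in STING WT cells and from 9.24 ± 0.177 to 15.0 ± 0.774 TPM in STING KO cells. The log2 changes were 0.47 (adjusted p = 0.0018) and 0.64 (adjusted p = 3.7e-04), and the STING KO minus WT differences were -1.22 and -1.05 without and with radiation (adjusted p = 1.2e-06 and 3.5e-06). CCND2 therefore had the same 4 calls as CDKN1A, in the same directions. CCND1 rose in STING WT cells by 0.22 (adjusted p = 0.011). CCNA2, which encodes the S phase and mitotic cyclin A2, fell in both lines, with log2 changes of -0.20 and -0.21 (adjusted p = 0.018 and 0.013).

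Genes that p53 and p21 are known to lower through the DREAM complex fell in part. Of 18 such genes, all tested, 5 fell and none rose in STING WT cells (27.8%), and 7 fell and none rose in STING KO cells (38.9%). Over all genes 1.5% fell in STING WT and 1.7% in STING KO cells. The 5 genes called in STING WT cells, KIF20A, CDC20, CENPF, CCNA2 and CCNB2, were all called in STING KO cells too, where they were 71.4% of the calls. KIF20A, a kinesin of cytokinesis, fell from 128 ± 3.59 to 83.0 ± 2.51 TPM in STING WT cells (log2 change -0.62, adjusted p = 9.3e-05) and from 147 ± 5.93 to 99.4 ± 2.81 TPM in STING KO cells (log2 change -0.56, adjusted p = 1.9e-04). CDC20, the activator of the anaphase-promoting complex, had log2 changes of -0.27 and -0.44 (adjusted p = 0.0082 and 6.2e-04). CDC25C, the phosphatase that activates CDK1, had a log2 change of -0.51 in STING KO cells (adjusted p = 0.021), and in STING WT cells it was -0.30 (adjusted p = 0.14). The median log2 change of the 18 genes was -0.20 in STING WT and -0.21 in STING KO cells. It was negative for 17 of them in STING WT and 15 in STING KO cells. CDK1 went the other way without passing, from 386 ± 44.0 to 431 ± 36.1 TPM and from 375 ± 26.1 to 415 ± 22.9 TPM. CCNA2 and CDK1 are also in the list of 17 cell cycle genes, so the fall of CCNA2 is counted in both lists. For STING KO against WT, 1 of the 18 passed without and 1 with radiation, 5.56% each beside 1.73% and 3.59% of all genes. Without radiation the libraries lay apart for 9 of the 18 upward and 1 downward in STING KO cells (55.6%, beside 20.6% of all genes). With radiation they lay apart for 7 upward and none downward (38.9%, beside 24.1%). CDC20 was higher in unirradiated STING KO than in WT cells by 0.27 (adjusted p = 0.010), which passed in 19 of 20 alternative fits. KIF20A was higher in irradiated STING KO than in WT cells by 0.26 (adjusted p = 0.013), which passed in 17 of 20.

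A wider list of 50 other p53 targets was described in the same way, and 47 were tested. In STING WT cells 7 rose and 2 fell with radiation (19.1%, beside 3.74% of all genes). The STING KO line had 3 that rose and 3 that fell (12.8%, beside 3.69%). The list median of the log2 change was 0.04 in STING WT and 0.02 in STING KO cells, beside 0.02 and 0.02 over all genes. By role, 3 of 11 tested cell death genes and 1 of 7 growth and cell cycle genes rose in STING WT cells. So did 1 of 11 metabolism and stress genes, and none of 4 DNA repair genes did. Of 14 genes with other roles, 2 rose and 2 fell. In STING KO cells 1 cell death, 1 growth and cell cycle and 1 metabolism and stress gene rose. Those that fell were SFN, a growth and cell cycle gene, and 2 genes with other roles. Over all genes 2.24% rose and 1.5% fell in STING WT cells, and 2% rose and 1.7% fell in STING KO cells.

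**Figure D4:**
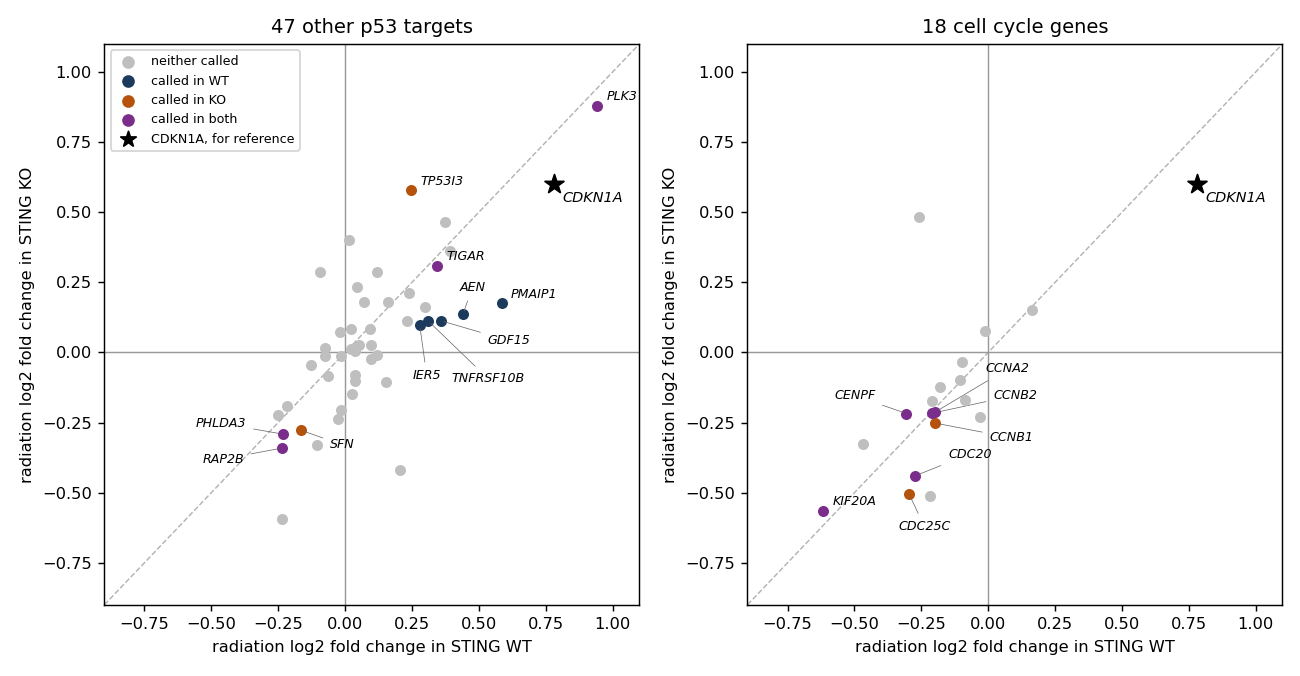
Log2 fold change with radiation in STING WT cells (horizontal axis) against that in STING KO cells (vertical axis) for the 47 other p53 targets tested (left) and 18 cell cycle genes lowered through DREAM (right), coloured by the comparison in which each passed the test, with CDKN1A as a star and the dashed line marking equal change. Most points of the left panel lie near 0, PLK3 lies beyond CDKN1A, and most points of the right panel lie at negative values in both lines.

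PLK3, a stress-responsive polo-like kinase, had the largest rise of that list in both lines. It was at 4.55, 2.64 and 3.59 TPM in unirradiated and 7.22, 6.85 and 9.20 TPM in irradiated STING WT cells, and at 2.70, 2.49 and 3.43 TPM and 7.09, 5.39 and 5.89 TPM in STING KO cells. The groups did not overlap within either line. The log2 changes were 0.94 (SE 0.17, adjusted p = 0.015) and 0.88 (SE 0.17, adjusted p = 0.021). TIGAR, a regulator of glycolysis and of NADPH supply, rose by 0.34 and 0.31 (adjusted p = 0.015 and 0.023). GDF15, a secreted stress cytokine, rose in STING WT cells by 0.36 (adjusted p = 0.044), and in STING KO cells its change was 0.11 (adjusted p = 0.53). PHLDA3, a repressor of AKT, and RAP2B, a small GTPase, fell in both lines. The log2 changes of RAP2B were -0.24 and -0.34 (adjusted p = 0.033 and 0.0057), and those of PHLDA3 were -0.23 and -0.29 (adjusted p = 0.043 and 0.018). PLK3, TIGAR, PHLDA3 and RAP2B were called in both lines. They were 44.4% of the calls in STING WT cells and 66.7% of those in STING KO cells.

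The cell death genes PMAIP1, AEN and TNFRSF10B rose in STING WT cells, TNFRSF10B by 0.31 on the log2 scale (limma, adjusted p = 0.029). PMAIP1, which encodes the BH3-only protein NOXA, was at 25.5, 28.7 and 21.6 TPM in unirradiated and 38.6, 37.4 and 38.4 TPM in irradiated STING WT cells (log2 change 0.59, adjusted p = 0.032). The values in STING KO cells were 8.51, 8.85 and 10.4 TPM without and 9.64, 12.7 and 9.62 TPM with radiation (log2 change 0.18, adjusted p = 0.51). The STING KO minus WT log2 differences were -1.35 without and -1.76 with radiation (adjusted p = 2.2e-04 and 2.0e-05), the largest differences of the list. AEN, a nuclease that degrades DNA in apoptosis, rose from 36.2 ± 1.34 to 49.5 ± 3.50 TPM in STING WT cells (log2 change 0.44, adjusted p = 0.0030). For the STING KO line it went from 34.9 ± 0.109 to 38.5 ± 1.61 TPM (0.14, adjusted p = 0.25). The differences between the lines' responses were -0.41 for PMAIP1 and -0.30 for AEN, and neither passed the interaction test (adjusted p = 0.74 and 0.62). TP53I3, a quinone oxidoreductase, rose in STING KO cells by 0.58 (adjusted p = 0.046), and in STING WT cells its change was 0.25 (adjusted p = 0.38). For STING KO against WT, none of the 47 genes was higher and 1 was lower without radiation (PMAIP1, 2.13% beside 1.73% of all genes). With radiation none was higher and 4 were lower (PMAIP1, AEN, TNFRSF10B and SFN, 8.51% beside 3.59%). That count ranged from 2 to 5 with a library left out, with AEN and PMAIP1 alone remaining when any irradiated STING WT library, or the second or the third irradiated STING KO library, was left out. It was 2 with the replicate block and 1 with only the 6 libraries compared, and SFN passed in 6 and TNFRSF10B in 13 of 20 alternative fits.

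Several of these calls were close to the threshold. With a library left out, 2 to 7 of the 47 targets rose and at most 1 fell in STING WT cells. The count of 2 came without the first irradiated STING WT library, which left AEN and PLK3, and without the third, which left AEN and TIGAR. For STING KO cells 0 to 3 rose and 2 to 3 fell. None rose without the second unirradiated, the first irradiated or the third irradiated STING KO library. Over 20 alternative fits, the rise in STING WT cells passed in 20 for AEN, 18 for PLK3, 12 for PMAIP1 and 4 for GDF15. It passed in 13 for TNFRSF10B and in 15 for IER5, another of the 47 targets (log2 change 0.28, limma, adjusted p = 0.023). In STING KO cells it passed in 16 for PLK3, 14 for TIGAR and 8 for TP53I3, while TIGAR passed in 16 in STING WT cells. The fall of RAP2B passed in 11 in STING WT and 19 in STING KO cells, and that of PHLDA3 in 5 and 14.

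Among the cell cycle genes, the fall of KIF20A and of CDC20 passed in 20 of 20 alternative fits in each line, as did the rise of CCND2. The fall of CENPF passed in 20 in STING WT but 8 in STING KO cells, that of CCNB2 in 10 in each line and that of CDC25C in 14 in STING KO cells. For CCNA2 it passed in 16 and 18. With a library left out, 3 to 6 of the 18 DREAM genes fell in STING WT and 2 to 7 in STING KO cells. The count was 2, KIF20A and CDC20, without the second unirradiated STING KO library, and 3 in STING WT cells without the first unirradiated or the second irradiated STING WT library.

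Of the 12 BCL2 family genes tested, PMAIP1 and BIK rose in STING WT cells and BAK1 fell in STING KO cells, 16.7% and 8.33% beside 3.74% and 3.69% of all genes. PMAIP1 is also among the 47 other p53 targets, so its call is counted in both lists. The BIK call rests on an adjusted p of 0.04998 and passed in 4 of 20 alternative fits. Its change was 0.24 in STING WT and 0.02 in STING KO cells. BAK1, which encodes the pore-forming effector BAK, had log2 changes of -0.02 in STING WT and -0.25 in STING KO cells (adjusted p = 0.90 and 0.025), and its fall passed in 14 of 20 alternative fits. Of 13 genes of the p53 family and its regulators, none passed in any of the 4 comparisons or for the interaction. The shares over all genes were 3.74%, 3.69%, 1.73%, 3.59% and 0.0188%, and 0 of 13 is near each of them. With a library left out or under another alternative, at most 1 of the 13 fell with radiation in STING KO cells. At an unadjusted limma p under 0.05 there were 1 and 2 for radiation (18.2% and 18.1% of all genes). For STING KO against WT there were 1 and 1 (14.3% and 17.9% of all genes), and for the interaction none (6.61%). TP63, the p53 relative of squamous epithelium, was at 85.7, 98.7 and 110 TPM in unirradiated and 90.6, 85.2 and 96.9 TPM in irradiated STING WT cells. In the STING KO line it was at 108, 79.0 and 85.9 TPM and at 66.2, 68.7 and 81.7 TPM. Its log2 change with radiation was -0.10 in STING WT and -0.32 in STING KO cells (adjusted p = 0.74 and 0.21). TP73 was at 5.39 ± 0.545 TPM in unirradiated STING WT cells and changed by 0.15 and -0.05. MDM4, the MDM2 relative that also binds p53, changed by -0.14 and -0.15 (adjusted p = 0.82 and 0.80).

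The 5 genes whose levels were most like that of CDKN1A over the 12 libraries, by Pearson correlation of log2(TPM + 1), were SLFN5 (r = 0.98), NGFR (0.98), AL512488.1 (0.97), IL7R (0.97) and TGFB1 (0.97). The 12 points fall into the 4 groups, so the correlations mostly repeat the group means. Within groups r was 0.80 for IL7R and 0.30 to 0.54 for the others. None of the 5 is one of the 9 genes or of the 50 other targets. Among the other 8 members the correlation with CDKN1A ran from -0.59 for ZMAT3 to 0.53 for BBC3. The genes most like MDM2 were POLR2J2, ATP5A1, SPIN1, SCOC and AC128689.1, with r from 0.90 to 0.93. Without the irradiated STING KO library in which MDM2 was low, r was 0.04, 0.37, -0.27, -0.69 and 0.68, so the likeness rested mostly on that library.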

How the data were processed

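RNA was sequenced from 12 FaDu libraries, 3 in each of 4 groups (STING WT or STING KO, 0 Gy or 4 fractions of 2 Gy). The authors deposited TPM for 58288 genes, and the submitters' processing notes name HISAT2, StringTie, DESeq2 and hg38 without versions. Each library sums to 1000000, so depth is unknown, and no counting error can be attached. The table names its STING WT columns after the non-targeting gRNA, and the other columns were taken as STING KO. TMEM173 was lower in all of them. Gene positions come from GENCODE release 29 (GRCh38), in which the MDM2 and GADD45A identifiers have another version number. All 9 symbols were found. Promoter windows of every annotated start came from RefSeq (GRCh38.p14), and all starts were searched after a search of 1 start a gene had been seen.

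The 15973 genes that reached 1 TPM in at least 3 libraries were fitted as log2(TPM + 1) with limma 3.58.1 in R 4.3.3 (4 group means, contrasts, eBayes with trend), since the deposited values are not counts. Benjamini-Hochberg adjustment ran over all genes tested. The fit was tested on simulated data with known changes. Alternatives were a pseudocount of 0.1, no filter, a minimum mean of 5 TPM, scaling by median of ratios, quantile normalization, no trend, a replicate block, only the 6 libraries compared, and each library left out. No shared deviation of libraries with the same labelled replicate number was seen, and no batch is labelled.

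The members and gene lists were chosen with earlier results of these data known, and the lists were compiled from general knowledge. The text names the 9 members, TMEM173, at most the 4 largest calls of each list for radiation, relatives of a member where a value was needed, and the 5 genes most like CDKN1A or MDM2. CCNA2, PHLDA3, TIGAR, CD68, COL1A1, TNFRSF10B, SFN and other genes of these lists were named after their values were seen. The gene for p53 itself and 1 other target are not reported here.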

Additional observations from a re-analysis of the deposited data

How the results depend on the processing

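All 4 calls of CDKN1A held under each of the 20 alternatives, with the adjusted p at most 0.028 and 0.043 for radiation in STING WT and STING KO cells and 0.032 and 0.0097 for STING KO against WT without and with radiation. The number of members past the threshold ranged from 1 to 2 for radiation in STING KO cells when a library was left out (2 without the second unirradiated STING KO library, GADD45A being added). For STING KO against WT with radiation it also ranged from 1 to 2, and it was 2 in the fit to only the 6 libraries compared, ZMAT3 being added. No pairing by labelled replicate number was visible. The 18 correlations between deviations of libraries with the same number lay between -0.060 and 0.064, and none was over 0.1. These values cannot show whether libraries with the same number were cultured or prepared together. With the replicate number as a block, 1 member passed in each of the 4 comparisons and 0 for the interaction, and over all genes 315, 359, 211, 378 and 1 passed in place of 597, 590, 276, 573 and 3. These counts were 178, 206, 106 and 255 with only the 6 libraries compared, 431, 405, 235, 478 and 7 without a filter, and 242 to 543, 270 to 559, 174 to 294, 310 to 540 and 1 to 9 with a library left out. Fits with fewer libraries have fewer degrees of freedom, and the cause of the other shifts was not tested.

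Changes of sign were confined to log2 values that did not pass the test. For SESN1 in unirradiated STING KO against WT, -0.02 became 0.0061 with median-of-ratios scaling and 0.025 with quantile normalization. With a library left out, radiation changes in STING WT cells ranged from -0.0012 to 0.39 for BBC3 and from -0.032 to 0.10 for RRM2B. In STING KO cells they ranged from -0.38 to 0.23 for MDM2, -0.16 to 0.096 for BBC3, -0.12 to 0.012 for BTG2, -0.095 to 0.069 for SESN1 and -0.079 to 0.034 for RRM2B. Differences of STING KO against WT without radiation ranged from -0.19 to 0.17 for GADD45A, -0.099 to 0.0027 for FDXR, -0.095 to 0.069 for SESN1 and -0.033 to 0.043 for RRM2B. With radiation they ranged from -0.60 to 0.012 for MDM2, -0.019 to 0.085 for BTG2 and -0.11 to 0.033 for RRM2B. Interactions ranged from -0.35 to 0.26 for MDM2 and -0.12 to 0.020 for RRM2B. The cause was not tested, beyond MDM2, where the first irradiated STING KO library gives the change of sign. BBC3 has no value with a minimum mean of 5 TPM, and the fit to only 6 libraries has no interaction.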

Other observations

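Among the 8 squamous epithelial markers, 2 passed the test for radiation in both lines, 25% beside 3.74% and 3.69% of all genes. DSG3, which encodes a desmosomal cadherin, fell from 35.2 ± 1.30 to 26.9 ± 0.748 TPM in STING WT cells (SD, n = 3) and from 35.9 ± 2.07 to 27.3 ± 1.00 TPM in STING KO cells, by -0.38 on the log2 scale in each (limma, adjusted p = 0.0064 and 0.0056). EPCAM, an epithelial adhesion molecule, rose by 0.15 and 0.18 (adjusted p = 0.046 and 0.023). The rise of EPCAM passed in only 3 of 20 alternative fits in STING WT and 11 in STING KO cells, and in none in STING WT cells when a library was left out, while the fall of DSG3 passed in 20 and 19. For STING KO against WT, 2 of the 8 passed without radiation (25%, beside 1.73% of all genes) and 1 with it (12.5%, beside 3.59%). KRT17, a keratin of stressed and basal epithelium, was lower by -0.29 without and -0.46 with radiation (adjusted p = 0.014 and 4.9e-04). That difference passed in 15 and 20 of 20. KRT14 was higher in unirradiated STING KO cells by 0.24 (adjusted p = 0.022), which passed in 12 of 20. These genes were named after their values were seen.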
